A study of Mus musculus with 2 samples.

Results

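The genes described were 33 interferon-stimulated genes, chosen by name from the genes known to respond to interferon. The choice was made with earlier results of these data known, so that counts of members beside shares of all genes are a description only. All 33 genes were found among the 26124 genes of the count tables. They were followed in single cells of mouse bone marrow cultures (GM-CSF BM cultures) from C57BL/6 mice of 8 to 10 weeks. Lineage-negative progenitors had been grown with the growth factor GM-CSF (20 ng/ml, with medium of 40 ng/ml added on day 2), which drives them towards dendritic cells, macrophages and granulocytes, and on day 3 either heme-albumin (300 µM) or albumin as vehicle control was added. Each group was 1 library, and each library pooled 5 cultures that carried hashtag antibodies named for culture days 0, 3, 4, 5 and 7. How many mice gave the cells of a library is not given in the sources used here. The cultures of days 0 and 3 preceded the addition and served as the background of each library, although their cells were pooled with exposed cells before the droplets were made. The harvests are given as days 4, 5 and 7 and the exposures as 24, 72 and 96 h, which cannot both hold for the culture of day 5, so that culture days are used throughout.

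Interferons are cytokines of antiviral defence. Type I interferon binds a receptor made of Ifnar1 and Ifnar2, the kinases Jak1 and Tyk2 then signal to a complex that holds Stat2 and Irf9 and binds the interferon-stimulated response element (ISRE) in front of its target genes. The targets include sensors of foreign nucleic acid, the transducers of the pathway itself, its inhibitors, and effector proteins that act on viral RNA, viral entry or viral release, and myeloid cells hold many of them at a basal level without infection.

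The kept cells numbered 598 to 2715 per culture, with 6189203 to 34647365 gene UMIs (unique molecular identifiers, which count transcripts) and a median of 7912 to 15078 UMIs per cell. Levels are UMIs of a gene summed over the cells of a culture, given as counts per 1000000 gene UMIs of that culture (CPM), so that fewer expressing cells and less RNA per cell cannot be told apart in them. Since each culture was sequenced once and each group was 1 library, the differences have no replicate check, no test between groups was possible, and the 95% intervals (exact, for the ratio of 2 Poisson counts) that follow a ratio in brackets cover counting error only. Hmox1, the heme oxygenase that heme induces, stood at 1399, 2321 and 5201 CPM on days 4, 5 and 7 in the heme library against 59.8, 63.4 and 86.3 CPM in the control library. Its day 0 levels were 133 CPM (heme library) and 1.94 CPM (control library), and whether free RNA of the pool or wrong hashtag calls gave the former was not tested. The limit of 5000 genes per cell removed 1.92% to 8.34% of the cells of a control culture and 16.4% to 33.9% of those of a heme culture. Barcodes kept in both libraries numbered 33, of which 6 had the same culture day.

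As a group and over all cells of a culture, the interferon-stimulated genes were lower in the heme cultures than in the control cultures on days 5 and 7, and not on days 0, 3 and 4. Among the 33 members, 30 were lower on day 7, where 34.5% of all counted genes were, and 23 were 2-fold or more lower, against 7.67% of all counted genes (those whose 2 cultures held 20 or more UMIs in sum). On day 5, again 30 of 33 were lower, against 33.8% of all genes, and 16 were 2-fold or more lower, against 3.75%. No member was 2-fold or more higher on either day, against 9.27% of all genes on day 5 and 14.9% on day 7. Mx1, an antiviral GTPase, stood at 2.00 CPM under heme on day 7 against 45.3 CPM under vehicle, with a ratio of 0.0442 (0.0331 to 0.0580), and Ifi27l2a, a small mitochondrial protein, stood at 88.1 against 946 CPM, with a ratio of 0.0931 (0.0893 to 0.0971).

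The median log2 ratio of heme to control over the members was 0.45 and 0.49 for the unexposed cultures of days 0 and 3, and 0.30, -0.94 and -1.46 for those of days 4, 5 and 7. The median over all genes was 0.43, 0.31, 0.28, 0.25 and 0.28 on the same days, so that relative to it the members stood at -1.19 on day 5 and -1.75 on day 7. Before heme was added, the medians of the members and of all genes were thus both above 0. On day 0, 8 of 31 counted members were 2-fold or more higher in the heme library, against 20.7% of all genes. On day 3, 5 of 31 were 2-fold or more higher, against 7.95%, and 0 were 2-fold or more lower, against 0.539%. On day 4, 24 h after the addition, 3 of 33 were 2-fold or more higher, against 9.64%, and 3 were 2-fold or more lower, against 2.98%.

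**Figure D1:**
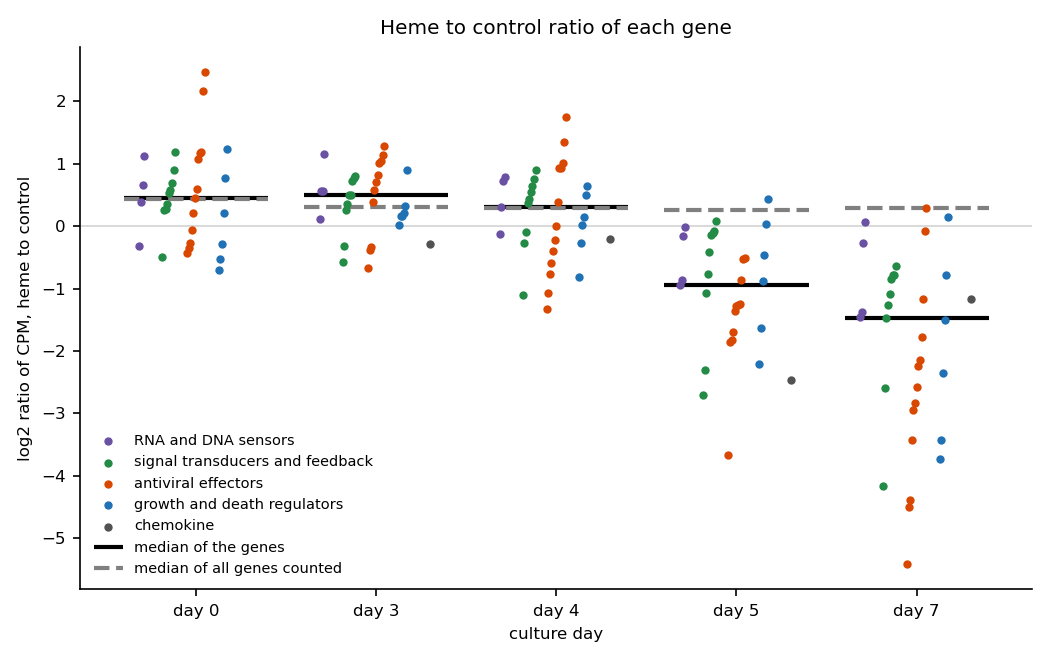
Log2 ratio of heme to control for each member and culture day, coloured and set side by side by role, with the median of the members in black and the median of all counted genes as a dashed grey line. The members lie about the line on days 0, 3 and 4 and mostly under it on days 5 and 7, where their medians are -0.94 and -1.46. Ifit3 and Ifi44 are not drawn on day 5, where the heme culture held none of their UMIs.

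Within each library, the members first went the same way and then parted. From day 3 to day 4, 31 of 32 counted members were higher in the control library and 32 of 32 were higher in the heme library. The median log2 changes of the members were 1.18 and 0.65. Of all genes, 60.1% and 60.3% were lower over this step, with medians of -0.09 and -0.11. A change of 2-fold or more upward was seen for 18 of 32 in the control library, against 4.31% of all genes, and for 13 of 32 in the heme library, against 5%. Single cells bore on this step, since without the cell with the most Isg15 UMIs of each culture 30 of 31 members were higher in the control and 29 of 31 in the heme library, where Ifit2 and Mx1 turned lower. From day 4 to day 5, the control library went on in the same direction, with a median of 0.89 and 16 of 33 members 2-fold or more higher, against 5.49% of all genes. The heme library stood still over the same step, with a median of -0.04, and 7 of 32 members were 2-fold or more lower, against 3.08%, or 3 of 31 without those cells. From day 5 to day 7, the control library had a median of 0.08. The heme library lay lower on day 7 than on day 5 for 28 of 31 counted members, against 41.3% of all genes. The median of its members was -0.65, beside 0.07 for all genes, and 7 of 31 members were 2-fold or more lower, against 4.5%.

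Over the whole span from day 3 to day 7, the median log2 change was 2.01 under vehicle and 0.20 under heme. In the control library 27 of 33 members were 2-fold or more higher on day 7 than on day 3, against 15.9% of all genes. In the heme library 3 of 31 were 2-fold or more higher, against 12.5%, and 4 of 31 were 2-fold or more lower, against 9.56%. The summed level of all 33 members is set by those with the most UMIs, since Ifitm3 and Ifi27l2a held 59138 and 32784 of the 137160 member UMIs in the control culture of day 7. It was 684, 1610.5, 2202, 3136 and 3959 CPM on days 0, 3, 4, 5 and 7 in the control library. In the heme library it was 709, 1469.5, 2019, 1707 and 1117 CPM, lower on day 7 than on day 3 although the median change over the members was above 0.

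**Figure D2:**
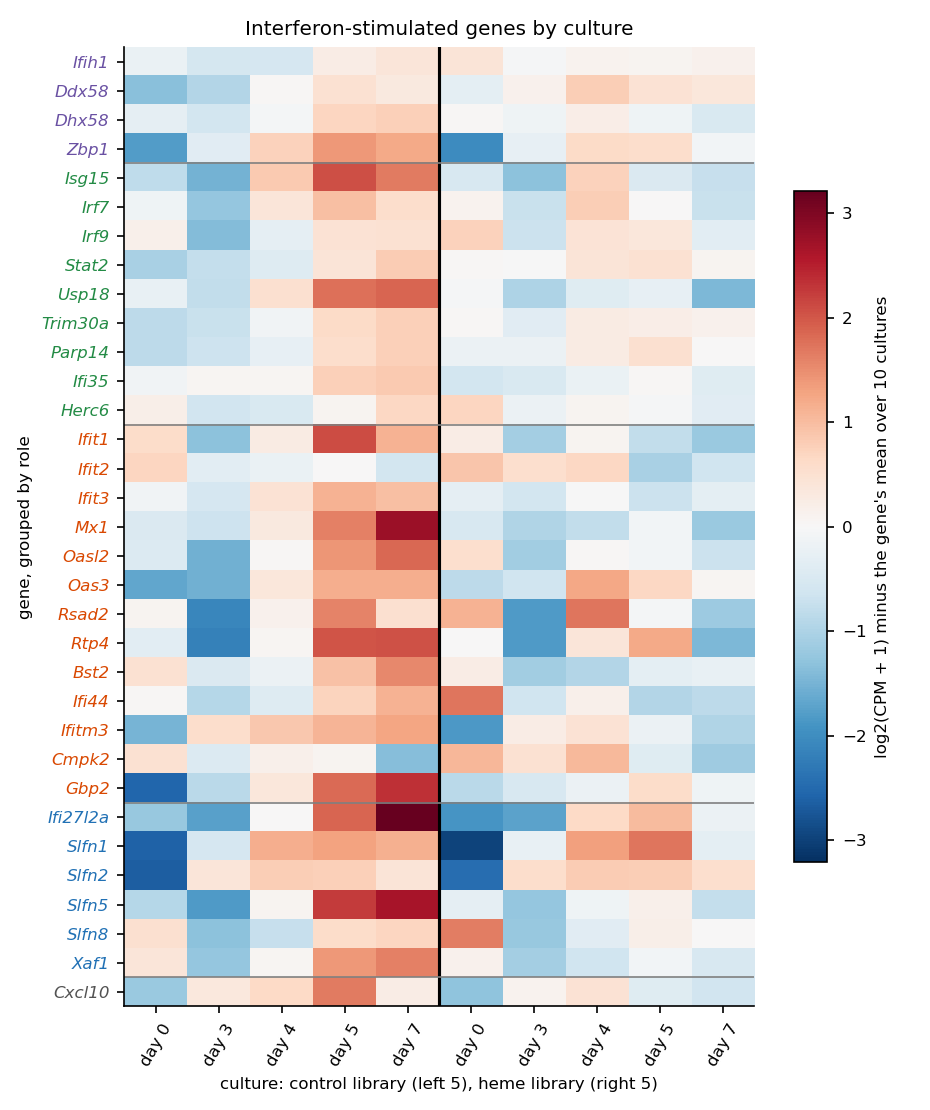
Levels of the 33 members (rows, ordered by role) in the 10 cultures (columns, the 5 control cultures on the left and the 5 heme cultures on the right), as log2(CPM + 1) minus the mean of that gene over the 10 cultures. Most rows are highest in the control cultures of days 5 and 7, while the heme cultures of the same days are near or under the gene's mean, with Slfn2, Ddx58 and Cmpk2 among the exceptions.

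On day 7 the sensors of nucleic acid differed least among the roles, with a median log2 ratio of -0.51 on day 5 and -0.82 on day 7. On day 7, 2 of 4 were 2-fold or more lower, against 7.67% of all genes. Ddx58, the RNA sensor RIG-I, stood at 7.27, 9.93, 20.4, 28.3 and 24.99 CPM on days 0, 3, 4, 5 and 7 in the control library and at 15.8, 22.2, 35.1, 27.9 and 26.01 CPM on the same days in the heme library. Ifih1, the RNA sensor MDA5, stood at 10.3, 7.92, 8.02, 14.4 and 16.2 CPM in the control library and 16.4, 11.7, 13.2, 12.9 and 13.4 CPM in the heme library. Neither differed by 2-fold on day 7, with ratios of 1.04 (0.941 to 1.15) for Ddx58 and 0.830 (0.725 to 0.948) for Ifih1. Dhx58, or LGP2, a helicase that modulates both, stood at 4.69, 3.60, 5.68, 10.2 and 10.8 CPM in the control library and 6.14, 5.30, 6.99, 5.31 and 3.93 CPM in the heme library. Zbp1, which binds nucleic acid in the Z form and can trigger cell death, stood at 3.39, 10.8, 24.3, 39.03 and 34.5 CPM in the control library and 2.73, 11.7, 22.2, 21.5 and 13.3 CPM in the heme library. These last 2 sensors were the ones that lay more than 2-fold lower on day 7, at ratios of 0.364 (0.291 to 0.453) for Dhx58 and 0.387 (0.343 to 0.435) for Zbp1.

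The transducers and feedback genes had a median log2 ratio of -0.41 on day 5 and -1.09 on day 7. On these days 3 and 5 of 9 members were 2-fold or more lower, against 3.75% and 7.67% of all genes. The members that carry the receptor's signal differed by less than 2-fold on both days. Stat2 stood at 6.62, 8.36, 10.8, 19.98 and 26.8 CPM in the control library and 15.1, 14.5, 20.2, 21.1 and 15.7 CPM in the heme library. Irf9, its partner in the ISRE-binding complex, stood at 25.9, 8.09, 18.6, 31.9 and 32.4 CPM in the control library and 38.7, 13.8, 31.5, 29.4 and 17.9 CPM in the heme library. On day 5 both were close between the libraries, and on day 7 the ratios were 0.583 (0.519 to 0.655) for Stat2 and 0.553 (0.496 to 0.616) for Irf9. Irf7, the factor that amplifies interferon alpha, stood at 6.14, 2.28, 9.21, 14.2 and 10.4 CPM in the control library and 7.43, 3.74, 12.4, 6.81 and 3.78 CPM in the heme library, higher in the heme library on days 3 and 4 and lower on days 5 and 7. Its log2 ratio was already 0.72 on day 3, before the addition, and 0.43 on day 4.

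The Isg15 system differed more. Isg15, a ubiquitin-like protein that is joined to other proteins, stood at 5.49, 2.99, 19.4, 47.3 and 35.4 CPM in the control library and 7.05, 3.59, 18.1, 7.27 and 5.86 CPM in the heme library. Usp18, the protease that removes Isg15 and that also restrains the interferon receptor, stood at 3.88, 2.35, 7.22, 18.5 and 20.00 CPM in the control library and 4.62, 1.89, 3.35, 3.76 and 1.11 CPM in the heme library. In the control library both were many times higher on days 5 and 7 than on day 3, whereas in the heme library Usp18 ended under its level of day 3, and the day 7 ratios were 0.166 (0.139 to 0.196) for Isg15 and 0.0557 (0.0373 to 0.0802) for Usp18. Herc6, the mouse ligase for Isg15, stood at 15.2, 8.26, 9.10, 14.2 and 21.5 CPM in the control library and 21.9, 11.6, 14.2, 12.9 and 10.1 CPM in the heme library, with a day 7 ratio of 0.468 (0.406 to 0.539).

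The remaining feedback genes lay between these. Trim30a, which restrains signalling of Toll-like receptors, stood at 25.7, 28.3, 43.4, 72.3 and 80.5 CPM in the control library and 47.8, 36.2, 55.9, 54.4 and 51.7 CPM in the heme library. Parp14, an ADP-ribosyltransferase, stood at 12.6, 14.3, 19.1, 35.1 and 40.5 CPM in the control library and 20.4, 20.3, 28.1, 33.3 and 23.5 CPM in the heme library. Ifi35, the partner of Nmi, stood at 27.95, 31.7, 31.7, 52.5 and 55.3 CPM in the control library and 19.9, 21.2, 26.2, 30.9 and 23.1 CPM in the heme library, and was the only one of these 3 that was lower in the heme library in every one of the 5 cultures, days 0 and 3 included. On day 7 the ratios were 0.643 (0.602 to 0.686) for Trim30a, 0.580 (0.527 to 0.638) for Parp14 and 0.418 (0.381 to 0.458) for Ifi35.

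The antiviral effectors held the largest differences on day 7, with a median log2 ratio of -1.36 on day 5 and -2.58 on day 7. On these days 10 and 11 of 13 members were 2-fold or more lower, against 3.75% and 7.67% of all genes. Mx1, a dynamin-like GTPase whose C57BL/6 allele carries a deletion and makes no active protein, stood at 4.04, 3.33, 7.60, 20.1 and 45.3 CPM in the control library and 3.87, 2.56, 3.02, 5.52 and 2.00 CPM in the heme library. Rtp4, which binds viral RNA, stood at 3.39, 0.238, 4.84, 21.5 and 21.8 CPM in the control library and 4.62, 0.578, 6.30, 11.8 and 1.04 CPM in the heme library. Rtp4 was higher on day 5 than on day 3 in both libraries and separated only then, with a day 7 ratio of 0.0477 (0.0315 to 0.0696), whereas Mx1 was already apart on day 4, with a ratio of 0.398 (0.304 to 0.517). Ifit1, which binds the capped ends of foreign RNA, stood at 4.69, 0.510, 3.53, 15.1 and 7.19 CPM in the control library and 3.49, 0.761, 3.02, 1.19 and 0.668 CPM in the heme library. Rsad2, or viperin, which makes a chain-terminating nucleotide, stood at 5.98, 0.544, 6.22, 18.8 and 8.51 CPM in the control library and 13.4, 0.883, 20.8, 5.31 and 1.93 CPM in the heme library. Both peaked on day 5 in the control library and on day 4 in the heme library, if the day 0 cultures are left aside, and the day 5 ratios were 0.0786 (0.0493 to 0.120) for Ifit1 and 0.283 (0.226 to 0.350) for Rsad2.

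Genes of the oligoadenylate family separated on days 5 and 7 as well. Oas3, which makes the oligoadenylates that activate RNase L, stood at 2.42, 2.69, 12.97, 23.2 and 23.4 CPM in the control library and 5.08, 5.94, 24.7, 16.2 and 10.4 CPM in the heme library. Oasl2, a relative, stood at 3.07, 0.884, 4.68, 13.7 and 18.9 CPM in the control library and 6.97, 1.55, 4.70, 4.23 and 2.45 CPM in the heme library. Oas3 was higher in the heme library up to day 4 and lower thereafter, with a day 7 ratio of 0.443 (0.385 to 0.508), and Oasl2 had a ratio of 0.130 (0.0992 to 0.167). The log2 ratio of Oas3 was already 1.14 on day 3, before the addition, and 0.93 on day 4. Gbp2, a guanylate-binding protein that attacks pathogen vacuoles, stood at 1.78, 7.92, 19.8, 55.7 and 81.9 CPM in the control library and 7.96, 10.3, 13.2, 23.4 and 13.7 CPM in the heme library, with a day 7 ratio of 0.167 (0.149 to 0.186).

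Membrane effectors were among the members with the most UMIs. Ifitm3, which blocks the entry of viruses, stood at 249, 1046, 1273, 1505 and 1707 CPM in the control library and 195, 832, 965, 617 and 363 CPM in the heme library. Bst2, or tetherin, which holds budding virions at the cell surface, stood at 126, 64.6, 78.2, 172 and 260.3 CPM in the control library and 105, 40.7, 46.1, 72.00 and 75.8 CPM in the heme library. Both were lower in the heme library in all 5 cultures, so that the day 7 ratios of 0.212 (0.208 to 0.217) for Ifitm3 and 0.291 (0.277 to 0.306) for Bst2 stand beside ratios before the addition (day 3) of 0.795 (0.783 to 0.809) and 0.630 (0.587 to 0.676). Cmpk2, a mitochondrial nucleotide kinase, stood at 17.3, 8.57, 13.4, 12.7 and 3.98 CPM in the control library and 26.2, 17.2, 25.7, 8.82 and 4.86 CPM in the heme library, and was the member with the highest log2 ratio on day 7, 0.29, in a control library where it was lower on day 7 than on any other day.

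The growth and death regulators went different ways from each other. Slfn2, a schlafen protein that keeps T cells quiescent, stood at 32.8, 277, 364, 358 and 278 CPM in the control library and 37.8, 310.1, 369, 365 and 307 CPM in the heme library, and kept together in both libraries. Slfn1 stood at 3.07, 16.05, 54.8, 59.5 and 53.3 CPM in the control library and 2.12, 20.00, 60.7, 80.1 and 18.9 CPM in the heme library, higher under heme on day 5, which turned to a log2 ratio of -0.43 with no upper limit on genes per cell, and lower on day 7. Slfn5 stood at 3.23, 1.26, 7.52, 36.8 and 48.9 CPM in the control library and 5.53, 2.34, 6.27, 7.94 and 3.67 CPM in the heme library. Slfn5 thus had a day 7 ratio of 0.0752 (0.0608 to 0.0921) where its family member Slfn2 had 1.10 (1.07 to 1.14). Xaf1, which binds and opposes the apoptosis inhibitor XIAP, stood at 9.69, 2.45, 7.60, 20.7 and 23.98 CPM in the control library and 7.96, 2.83, 4.30, 6.70 and 4.71 CPM in the heme library. Ifi27l2a stood at 43.1, 29.5, 102, 375 and 946 CPM in the control library and 26.5, 30.04, 159, 205 and 88.1 CPM in the heme library. It was higher under heme on day 4, with a ratio of 1.56 (1.49 to 1.64), and lower on days 5 and 7. Cxcl10, a chemokine that attracts T cells and the only chemokine of the list, stood at 0.969, 4.69, 6.03, 13.3 and 4.33 CPM in the control library and 0.834, 3.87, 5.25, 2.42 and 1.93 CPM in the heme library, with ratios of 0.182 (0.131 to 0.247) on day 5 and 0.446 (0.319 to 0.615) on day 7.

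Ifit2, Ifit3, Ifi44 and Slfn8 stayed under 10 CPM in every culture of days 3 to 7. Ifit3 held 64 UMIs in the control culture of day 5 and 0 in the heme culture, which with a count of 0 allowing up to 3 counts is at least 15.9-fold lower, and 73 and 8 UMIs on day 7. Ifi44 held 57 and 0 UMIs on day 5, at least 14.2-fold lower, and 110 and 2 UMIs on day 7, a ratio of 0.0234 (0.00280 to 0.0865). The other pair differed less. Ifit2 held 138 and 40 UMIs on day 5, a ratio of 0.388 (0.266 to 0.556), and 111 and 82 on day 7, a ratio of 0.9498 (0.705 to 1.27). Slfn8 held 275 and 124 UMIs on day 7, a ratio of 0.580 (0.465 to 0.719). Members with near-identical copies, which the counting could split or drop, are uncertain (Ifit1, Ifit3, the Slfn genes, Trim30a and Ifi27l2a).

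**Figure D3:**
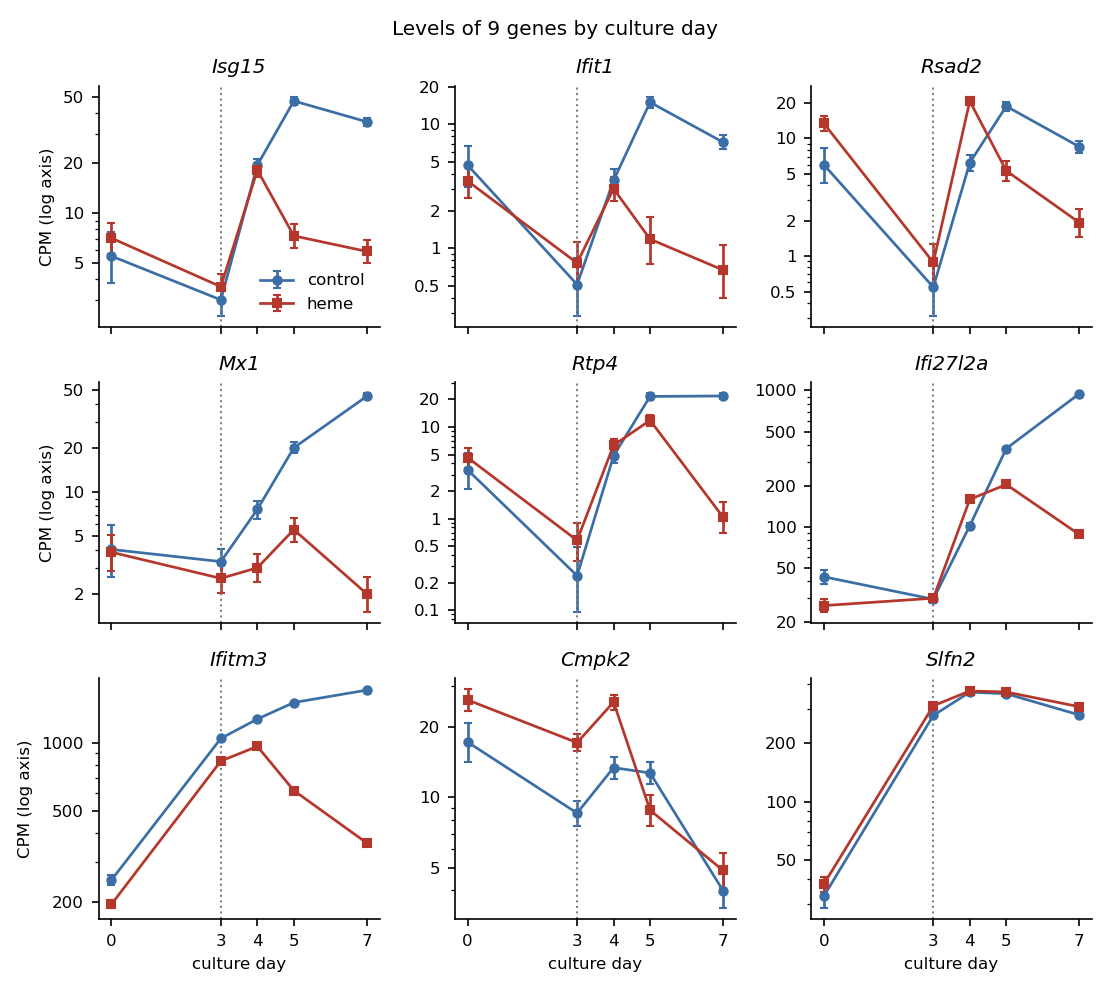
CPM (log axis) of 9 members by culture day in the control and heme libraries, with exact 95% Poisson intervals as bars and a dotted line at day 3, when heme-albumin or albumin was added. Isg15, Ifit1, Rsad2, Rtp4 and Ifi27l2a are higher on day 4 than on day 3 in both libraries and then part, Ifitm3 parts after day 4 from unequal levels, and Slfn2 runs together in both.

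Among members that are neighbours on a chromosome, some had like and some had unlike ratios on day 7. On chromosome 12 (GRCm38), Rsad2 (26442746 to 26456452, minus strand) and Cmpk2 (26469204 to 26479837, plus strand) had log2 ratios of -2.14 and 0.29. On chromosome 19, Ifit2 (34550694 to 34576419) and Ifit1 (34640871 to 34650009), both on the plus strand, had -0.07 and -3.43, and between them Ifit3 (34583531 to 34588731, plus strand) had -2.83, closer to that of Ifit1. On chromosome 7, Ifitm3 (141009586 to 141010770, minus strand) and Irf7 (141262706 to 141266481, minus strand), which lie farther apart than the other members given here, had -2.23 and -1.46. On chromosome 11, Slfn5 (82951349 to 82964840, plus strand) and Slfn2 (83065112 to 83070678, plus strand) had -3.73 and 0.14, and between them Slfn8 (83002158 to 83020810, minus strand) had -0.79. Slfn1 (83116849 to 83122670, plus strand), on the other side of Slfn2, had -1.50.

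Since genes induced by type I interferon are known for the ISRE, the promoters of the members were read for it. The window ran from 250 bases before to 50 bases after the start of each gene as RefSeq gives it for GRCm38.p6, and 26 of the 33 members had a window in the table used. Mx1, Usp18, Rtp4, Ifi27l2a, Dhx58, Zbp1 and Parp14 had none there. An ISRE-type motif was defined as 2 copies of GAAA separated by 2 bases of any kind, on either strand, and was found for 15 of 26 members (57.7%) and for 3.99% of the 27025 genes of the table. A GAS-type motif, TTCNNNGAA (read the same on both strands in its fixed letters), was found for 4 of 26 members (15.4%) and for 9.55% of all genes. The 15 members with the ISRE-type motif had a median log2 ratio of -1.78 on day 7 and 10 of them were 2-fold or more lower, and the 11 without had a median of -1.26 and 7 were 2-fold or more lower. Of all counted genes, 7.67% were 2-fold or more lower on that day. The windows of the 5 members with the lowest ratio on day 7 among those with 10 CPM or more in at least 1 culture of days 3 to 7 and a window are printed, with the motif in capitals, to show how it is placed.
Slfn5: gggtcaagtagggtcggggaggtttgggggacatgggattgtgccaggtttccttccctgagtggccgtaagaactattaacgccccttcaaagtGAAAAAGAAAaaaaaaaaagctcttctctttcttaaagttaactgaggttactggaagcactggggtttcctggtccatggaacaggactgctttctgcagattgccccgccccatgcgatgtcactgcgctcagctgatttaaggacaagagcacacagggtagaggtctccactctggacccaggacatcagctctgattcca
Ifit1: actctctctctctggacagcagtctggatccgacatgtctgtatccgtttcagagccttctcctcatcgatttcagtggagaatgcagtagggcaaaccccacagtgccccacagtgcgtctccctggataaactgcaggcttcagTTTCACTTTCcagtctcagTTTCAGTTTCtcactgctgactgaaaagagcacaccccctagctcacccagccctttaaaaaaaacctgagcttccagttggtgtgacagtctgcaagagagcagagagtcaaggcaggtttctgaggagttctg
Oasl2: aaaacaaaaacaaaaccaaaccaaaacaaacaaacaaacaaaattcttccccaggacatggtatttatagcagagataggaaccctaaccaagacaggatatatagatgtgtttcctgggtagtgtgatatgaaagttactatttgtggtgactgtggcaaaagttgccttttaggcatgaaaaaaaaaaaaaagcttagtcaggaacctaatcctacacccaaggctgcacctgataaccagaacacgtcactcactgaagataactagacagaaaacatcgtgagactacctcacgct
Isg15: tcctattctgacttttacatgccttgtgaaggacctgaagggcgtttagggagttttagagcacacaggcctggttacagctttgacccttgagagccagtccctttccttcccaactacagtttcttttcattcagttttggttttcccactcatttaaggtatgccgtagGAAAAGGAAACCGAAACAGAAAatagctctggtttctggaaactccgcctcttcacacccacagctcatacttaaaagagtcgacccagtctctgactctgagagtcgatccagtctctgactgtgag
Gbp2: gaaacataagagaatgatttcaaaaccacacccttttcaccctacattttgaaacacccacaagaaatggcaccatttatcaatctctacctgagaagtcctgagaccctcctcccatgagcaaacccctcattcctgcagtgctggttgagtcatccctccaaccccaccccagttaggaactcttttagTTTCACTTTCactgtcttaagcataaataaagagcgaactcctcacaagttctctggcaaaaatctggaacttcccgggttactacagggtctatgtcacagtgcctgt
Slfn5 (chr11:82951852-82952151, plus strand) had 1 match that started 155 bases before the RefSeq start. Ifit1 (chr19:34640639-34640938, plus strand) had 2 matches at 104 and 85 bases before that start, on the opposite strand, so that they read as TTTC in the window. Isg15 (chr4:156200769-156201068, minus strand) had 3 overlapping matches that started 78, 72 and 66 bases before the start and form 1 run. Gbp2 (chr3:142620413-142620712, plus strand) had 1 match at 59 bases before the start, likewise on the opposite strand. Oasl2 (chr5:114896684-114896983, plus strand) had no match of these letters in the window and had a day 7 log2 ratio of -2.95. The gene positions given with the neighbours come from another annotation, in which Slfn5 and Gbp2 start farther upstream, so that the whole window of Slfn5 and the match of Gbp2 lie inside the gene as annotated there.

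On day 4, 1 cell carried a large part of the UMIs of some members in the heme culture. It held 31843 gene UMIs and 1128 of the 55413 UMIs of all members together, of which it expressed 32, and it had 220 of the 497 Isg15 UMIs, 307 of the 570 Rsad2 UMIs and 41 of the 83 Mx1 UMIs of its culture. It belonged to none of the 3 marker classes described next, with 25 S100a8 UMIs and no UMI of Ccr7 or Marco. The control culture of day 4 also held a cell of this kind, with 23158 gene UMIs, 391 UMIs of the members and all 33 members detected. Without the cell with the most Isg15 UMIs of each culture, Isg15 stood at 10.1 CPM in the heme culture and 17.02 CPM in the control culture of day 4, a log2 ratio of -0.75 in place of -0.10. Rsad2 stood at 9.59 and 4.96 CPM, a log2 ratio of 0.95 in place of 1.74. This 1 cell thus held more Rsad2 UMIs than all other cells of its culture together, yet without it Isg15 still stood above its day 3 level of 3.59 CPM. Mx1 and Ifit2 did not, at 1.53 and 6.71 CPM on day 4 against 2.56 and 8.16 CPM on day 3, each without that cell. The log2 ratio of Ifi44 on day 4 went from 1.34 to -0.36 by the same step. It left the counts of members 2-fold or more lower at 16 on day 5 and 23 on day 7.

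The cultures differed in their cells, and so the members were also compared within cells chosen by 1 marker each. S100a8-high cells (S100a8, a neutrophil protein, at 3% or more of the UMIs) made up 51.6% and 3.09% of the vehicle control's cells on days 5 and 7 and 68.7% and 18.8% of the heme cells. Ccr7-positive cells (2 or more UMIs of Ccr7, a chemokine receptor of migrating dendritic cells) made up 6.46% and 19.4% of the control's cells and 5.14% and 1.89% of the heme cells. Marco-positive cells (3 or more UMIs of Marco, a scavenger receptor of macrophages) made up 0.479% of the cells under vehicle and 35.9% of those under heme on day 7. The names were checked against marker lists. All 11 neutrophil markers were 2-fold or more higher in S100a8-high cells than in the other cells of the culture on day 5 in both libraries, 7 and 9 of 10 dendritic cell markers were so in the Ccr7-positive cells of the control and heme cultures of day 5, and 4 of 10 macrophage markers were so in the Marco-positive cells of the heme culture of day 7. In the control's S100a8-high cells of day 5, 4 of 6 progenitor and 6 of 7 erythroid markers were so as well. In those of the heme culture 1 of 6 and 0 of 7 were. The progenitor markers summed to 1060 CPM in these control cells and 309 CPM in these heme cells. The part of this difference in the ratios within the class was not tested.

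Summed over whole cultures, the 10 dendritic cell markers stood at 6319 and 8078 CPM on days 5 and 7 in the control library and at 1804 and 574 CPM in the heme library, and the 11 neutrophil markers on day 7 at 4438 and 29769 CPM, with none of either list at 0. When the classes of the control culture were given the weights they had in the heme culture, the median log2 ratio of the members was -1.03 on day 5 and -1.84 on day 7, beside -0.94 and -1.46 without the weights. Few control cells were Marco-positive (6 on day 5 and 13 on day 7), and on day 7 these 13 cells were given a weight of 44.4% in place of 0.615%. With them pooled with the unselected cells (those of no class) with under 1% of their UMIs from Cd74, the medians were -1.04 and -1.70. Plasmacytoid dendritic cells, a main source of type I interferon, were sparse, since the sum of their 7 markers was 24.4 to 55.7 CPM in the control cultures and 31.1 to 37.7 CPM in the heme cultures of days 3 to 7, against 382 and 528 CPM on day 0. In the heme culture of day 7, Siglech and Klk1 of this list had no UMI.

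Within each class that could be compared, heme lay under control for most members on days 5 and 7. In S100a8-high cells the median log2 ratio was 0.46 on day 4, beside 0.48 for all genes. It was -0.78 on day 5, with 11 of 32 members 2-fold or more lower against 1.81% of all genes. On day 7 it was -1.04, with 11 of the 22 members that were counted there 2-fold or more lower against 3.47%. In Ccr7-positive cells it was -1.13 on day 5, with 14 of 25 members 2-fold or more lower against 2.61%. On day 7 the heme culture held 38 Ccr7-positive cells, fewer than the 50 set as a minimum, and no value is given. Cells in none of the 3 classes (unselected cells) had a median of -1.67 on day 5, with 21 of 33 members 2-fold or more lower against 4.13%. On day 7 their median was -1.57, with 22 of 33 against 6.4%, and all 33 members were lower there, against 34% of all genes. The make-up of the unselected cells differed between the libraries. Their 10 dendritic cell markers summed to 8514 and 7688 CPM on days 5 and 7 under vehicle and to 2248 and 582 CPM under heme. The part of this difference in the medians was not tested. Leaving out the unselected cells with 1% or more of their UMIs from Cd74, a gene of antigen presentation, gave -1.89 on day 7 and 25 of 33 members 2-fold or more lower, against 5.28%. The Cd74-high cells left out there were already apart on day 4 (60 heme and 149 control cells). Their median was -0.63, beside 0.15 for all genes, and 19 of 25 members were lower, against 42.8% of all genes. All unselected cells together had a median of 0.18 on that day, beside 0.26 for all genes. On day 5 the Cd74-high cells had -1.25, with 25 of 29 members lower, against 45.8%.

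Rtp4 was lower in both classes compared on day 7, at 2.30 against 60.4 CPM in S100a8-high cells and 0.998 against 25.8 CPM in unselected cells. Ifi27l2a behaved alike, at 118 against 1094 CPM in S100a8-high cells and 110.4 against 1031 CPM in unselected cells. On day 5 the same gene was at a ratio of 0.756 (0.720 to 0.792) in S100a8-high cells, 0.217 (0.181 to 0.257) in Ccr7-positive cells and 0.205 (0.187 to 0.225) in unselected cells. The difference was thus smaller in S100a8-high cells than in the other classes on day 5, by more than the counting error. Ifitm3 also differed less in S100a8-high cells, with day 7 ratios of 0.662 (0.605 to 0.726) there and 0.187 (0.181 to 0.193) in unselected cells. Isg15 on day 5 was close between the classes, with ratios of 0.171 (0.134 to 0.214) in S100a8-high, 0.111 (0.0396 to 0.253) in Ccr7-positive and 0.123 (0.0880 to 0.168) in unselected cells.

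In Ccr7-positive cells of day 5 the members split. Bst2 stood at 143 CPM under heme against 381 CPM and Ifitm3 at 151 against 641 CPM. The transducer Stat2 stood at 54.6 against 48.7 CPM, Parp14 at 78.4 against 63.4 CPM and Herc6 at 55.2 against 47.5 CPM. These last 3 were therefore not lower under heme in these cells, which numbered 153 under vehicle and 98 under heme.

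The 3 members whose whole-culture ratio was above 1 on day 7 were Cmpk2, Slfn2 and Ddx58. These directions depended on the processing, since with TMM factors (a scaling of the libraries) the log2 ratios of Slfn2 and Ddx58 were -0.09 and -0.18, and with no upper limit on genes per cell those of Cmpk2 and Ddx58 were -0.28 and -0.11. In unselected cells Cmpk2 stood at 1.09 CPM under heme against 4.30 CPM, a ratio of 0.253 (0.127 to 0.459), and at 30.5 and 22.6 CPM in S100a8-high cells, a ratio of 1.35 (0.683 to 3.03). Its level was thus many times higher in S100a8-high cells, which were 18.8% of the heme and 3.09% of the control cells on that day. The part of these shares in the whole-culture ratio of Cmpk2 was not tested. Slfn2 in unselected cells stood at 294 against 299 CPM, and Ddx58 at 26.4 against 28.7 CPM, both within counting error of 1 as ratios.

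**Figure D4:**
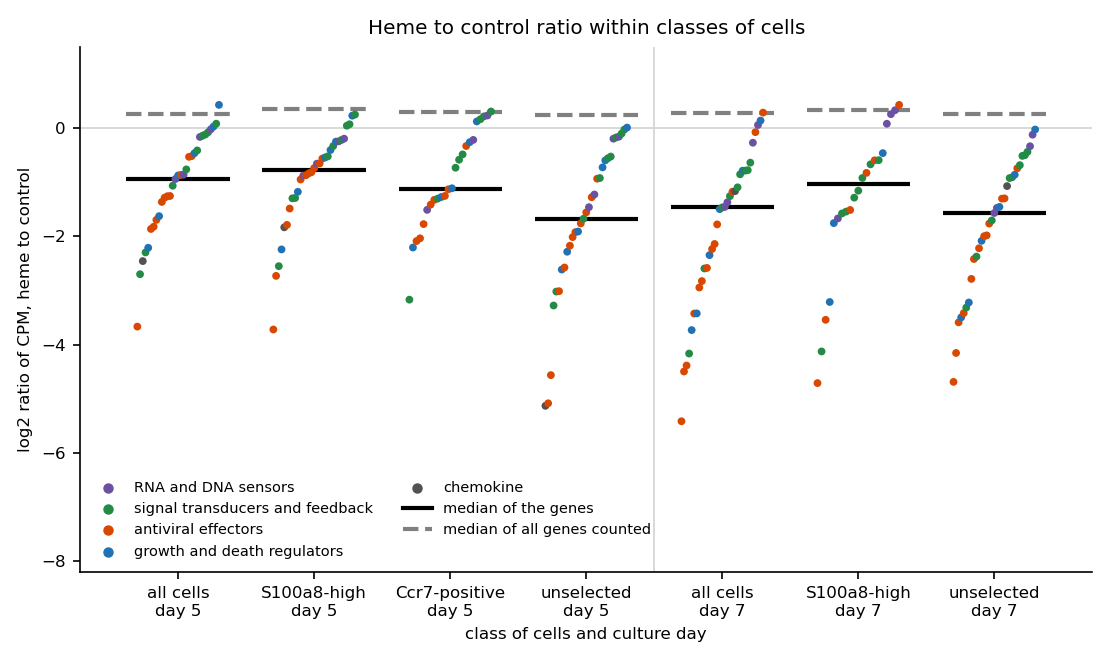
Log2 ratio of heme to control for the counted members in all cells, S100a8-high, Ccr7-positive and unselected cells on day 5 and in all, S100a8-high and unselected cells on day 7, with the median of each column in black and the median of all genes as a dashed line. The medians lie between -1.67 and -0.78, each under that of all genes.

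The members also differed in the cells that carried them in the control culture of day 7. Mx1 stood at 152 CPM in Ccr7-positive cells, 19.4 CPM in unselected cells and 2.52 CPM in S100a8-high cells, and Bst2, Herc6 and Gbp2 were likewise highest in Ccr7-positive cells. Rtp4 had the opposite order, with 3.35 CPM in Ccr7-positive, 25.8 CPM in unselected and 60.4 CPM in S100a8-high cells. Slfn1, at 8.01, 62.5 and 196 CPM, and Rsad2, at 5.10, 8.94 and 40.2 CPM in the same 3 classes, followed the order of Rtp4. The S100a8-high cells numbered 84 in this culture and held 1.15% of its gene UMIs. All levels given for them here, that of Mx1 included, thus rest on few cells and few UMIs.

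Marco-positive cells were nearly absent from the control culture (13 cells on day 7) and were compared with the other cells of the heme culture of day 7. The median log2 ratio of the members was -0.35 beside 0.01 for all genes. Of 30 counted members 26 were lower in the Marco-positive cells, against 48.4% of all genes, and 7 were 2-fold or more lower, against 6.56%. Slfn1 stood at 4.60 CPM against 30.3 CPM in the other cells, Cmpk2 at 1.34 CPM against 7.67 CPM and Ifitm3 at 211 CPM against 483 CPM. The comparison is between cells of 1 library, and the other cells include S100a8-high cells, in which Slfn1 and Cmpk2 were high.

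The difference on day 7 was seen in the number of members per cell as well. Each cell was thinned to 3000 UMIs, which left out 173 shallower control and 112 heme cells on day 7, and the members with a UMI were counted in it. Cells with 5 or more of the 33 members were 4.74%, 3.73%, 13.9%, 35.8% and 45.7% of the cells under vehicle for days 0, 3, 4, 5 and 7. In the heme library they were 6.64%, 4.29%, 17.8%, 18.3% and 6.05%. The exact binomial intervals on day 7 were 43.7% to 47.6% for control and 5.02% to 7.22% for heme, and the heme share on day 7 was about that of the unexposed cultures. The median cell of day 7 held 4 members under vehicle and 2 under heme. Without thinning, when the median depth was 12029 and 13627 UMIs per cell, the shares on day 7 were 89.3% and 65.3%.

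**Figure D5:**
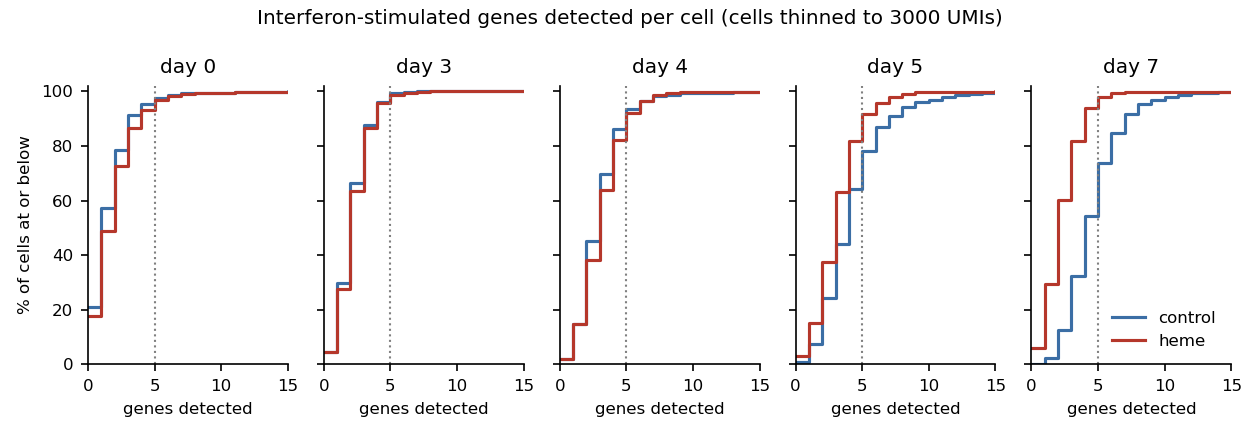
Cumulative share of cells (%) by the number of members detected per cell after thinning to 3000 UMIs, 1 panel per culture day, with 1 line for each library and a dotted line at 5 members. The lines run close on days 0, 3 and 4, although on day 4 the share with 5 or more members is 13.9% under vehicle and 17.8% under heme. They part the other way on days 5 and 7. On day 7, 45.7% of the cells under vehicle and 6.05% of those under heme hold 5 or more members.

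The share of cells with a UMI of Ifi27l2a, after thinning, was 7.46%, 19.7%, 41.8% and 71.5% on days 3, 4, 5 and 7 in the control library and 7.69%, 25.7%, 31.6% and 19.9% in the heme library, and 82.1% and 40.95% on day 7 without thinning. The day 0 cells, which share the libraries' free RNA, had 11.96% and 7.31%. Cells with a UMI of Mx1 were 10.4% under vehicle and 0.526% under heme on day 7 (25.5% and 1.99% without thinning), and the heme share lay under the 1.51% of its own day 0 culture. For Ifitm3 the shares on day 7 were 86.9% and 49.5% (93.4% and 78.98% without thinning).

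The rest of the pathway was read from lists that hold no member. Transcripts of the 21 interferon genes were near absent, with 2 to 6 UMIs in all per control culture and 1 to 5 per heme culture, too few to compare. Of 18 receptors and proximal signalling genes, 3 were 2-fold or more lower on day 7 and 1 was 2-fold or more higher (the shares of all genes are those given above for day 7), with a median log2 ratio of 0.02. The named lower ones were Irf8, a factor of dendritic cell development (-1.46), Irf5 (-1.28) and the kinase Jak2 (-1.24), and the higher ones Socs3, an inhibitor of cytokine signalling (1.53), Jak1 (0.74) and Il10rb (0.62), as log2 ratios. The type I receptor chains were chosen for naming after their values had been seen: Ifnar1 stood at 46.01 against 40.8 CPM under heme and vehicle, and Ifnar2 at 51.2 against 34.5 CPM on day 7, neither lower under heme.

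Of the 14 counted genes that lead to interferon production, 0 were 2-fold or more lower on day 7 and 4 were 2-fold or more higher, against 7.67% and 14.9% of all genes. The median log2 ratio of these 14 was 0.35. Among them Unc93b1, the chaperone of nucleic acid-sensing Toll-like receptors, had -0.88, Tmem173, which encodes STING, -0.46 and Samhd1 -0.27, while Traf3 had 1.16, the RNA receptor Tlr7 1.13 and the kinase Tbk1 0.91. Other genes induced by type I interferon had medians closer to 0 than the members. Of 56 counted, 14 were 2-fold or more lower on day 5 and 17 on day 7, against 3.75% and 7.67% of all genes. The medians of the 56 were -0.36 and -0.50. The outermost on day 7 were Phf11b (-5.55), Helz2 (-1.84) and Ifitm1 (-1.84) on the lower side and Ifitm6 (0.59), Samd9l (0.59) and Parp10 (0.54) on the higher side. Of 23 counted genes known best from interferon gamma, 10 were 2-fold or more lower on day 7 and 0 higher, against 7.67% and 14.9% of all genes. The median of the 23 was -0.68. Gbp3 (-2.28), Ciita, the master regulator of class II antigen presentation (-2.05), and the immunoproteasome subunit Psmb8 (-2.04) were the lowest, and Cd274 (0.40) and Socs1 (0.02) were the only ones with 10 CPM or more that were not lower. Dendritic cells hold Ciita and Psmb8 at high levels, and the dendritic cell markers were lower in the same culture, by the values given with the classes. Their part in the result was not tested for these lists.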

How the data were processed

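The deposited count tables hold raw UMI counts per gene and barcode, which the authors made with Cell Ranger (4.0.0 in the submitters' processing notes, 5.0.0 in the matrix headers) on GRCm38.p6. The gene annotation used for counting is not given in the sources used here. The deposited hashtag calls were made by the authors with HTODemux in Seurat 3.2.3 and were used as they stand, and barcodes with several hashtags or none entered no comparison. Cells with 1 hashtag, 500 to 5000 genes, at most 15% mitochondrial and at most 30% ribosomal protein UMIs were kept (9684 control and 9941 heme cells). The methods of the study word the last 2 as lower bounds, and they were taken here as maxima. No doublet caller was run beside the hashtag calls, so that doublets within 1 culture remain.

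UMIs were summed per culture and class and given as CPM, with exact Poisson ratio intervals and Clopper-Pearson intervals for shares (Python 3.11.15, numpy 2.4.6, scipy 1.17.1, pandas 2.3.3, matplotlib 3.10.9). Medians over members and over all genes used genes whose 2 cultures held 20 or more UMIs in sum, and classes of under 50 cells were not compared, although they entered the reweighting by class. TMM factors of edgeR 4.0.16 and size factors of DESeq2 1.42.0 (R 4.3.3) were alternatives, beside other cell filters, totals and cutoffs of the classes. The scripts were tested on simulated counts. Gene positions and promoters came from annotations of GRCm38. All 33 members are given, those with 10 CPM or more in at least 1 culture of days 3 to 7 by their level in all 10 cultures, and from each pathway list the 3 outermost genes of day 7 in each direction with 10 CPM or more. The members, the lists and the classes were chosen with earlier results of these data known.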

Additional observations from a re-analysis of the deposited data

Results flagged for a closer look

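For 3 members the change from day 3 to day 7 went upward in the control library and downward in the heme library, each by more than counting error. The difference between the libraries was not tested, since each was 1 library. Usp18 changed by 3.09 on the log2 scale in the control library and by -0.76 in the heme library, a difference of -3.85 for heme minus control. Dhx58 changed by 1.58 and -0.43, a difference of -2.01. Ifitm3 changed by 0.71 and -1.20, a difference of -1.90. Usp18 restrains the receptor and Dhx58 modulates the RNA sensors, and both rest on few UMIs, whereas Ifitm3 was among the members with the most UMIs. In both libraries the cells of day 3 and those of day 7 differed in type, and the part of that difference in these changes was not tested.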

How the results depend on the processing

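No paired analysis was possible because each group was 1 library. The median log2 ratio of the members over the alternatives ranged from -1.48 to -0.91 on day 5 and from -1.84 to -1.30 on day 7, and from -0.14 to 0.33 on day 4, where its sign thus depended on the setting. No member that differed by 2-fold or more on day 5 or 7 changed the sign of its ratio under the alternatives run for single members. Smaller ratios did, for Slfn1, Slfn2 and Stat2 on day 5 and for Cmpk2, Ddx58, Ifit2 and Slfn2 on day 7, of which Cmpk2, Ddx58 and Slfn2 all fell below 0 net of day 3. Sign changes were more frequent on the earlier days, for 10 members on day 0, 9 on day 3 and 15 on day 4. Those of day 4 were Cmpk2, Cxcl10, Ddx58, Dhx58, Ifi35, Ifi44, Ifit1, Ifit2, Irf7, Irf9, Oas3, Oasl2, Rtp4, Slfn1 and Slfn2. Within classes the ranges were -1.12 to -0.65 (day 5) and -1.54 to -0.94 (day 7) in S100a8-high cells, and -1.95 to -1.32 and -1.87 to -1.39 in unselected cells.

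On day 0, TMM and DESeq2 factors gave medians of 0.0657 and 0.0719 in place of 0.45, and Rsad2 went to -0.13 without the 1% of cells with the most UMIs. On day 4, DESeq2 factors gave 5 members 2-fold or more lower in place of 3, Ifit2 went to -0.0325 net of day 3, and Ifi44 to -0.36 without the cell of each culture with the most Isg15 UMIs, an alternative chosen after seeing the data, as were both reweightings by class and leaving out the barcodes of both libraries. In Ccr7-positive cells TMM and DESeq2 factors both gave -1.44 on day 5, in place of -1.13, and day 7 gave no value. Marco-positive against other heme cells gave -0.19 with all cells with 1 hashtag, -0.20 with no upper limit on genes and -0.24 without the 1% of cells with the most UMIs, in place of -0.35. The share of cells with 5 or more members on day 7 was 80.9% in control and 26.0% in heme at 6000 UMIs per cell, and 89.3% and 65.3% without thinning, in place of 45.7% and 6.05% at 3000 UMIs, so that its size depends on depth. The causes were not tested. A member with few UMIs, such as Ifit3 or Ifi44, has a wide interval, and no spread between cultures can be given.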

Other observations

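Barcodes without a hashtag call of 1 culture were not part of any comparison. Those with no hashtag numbered 652 in the control and 1218 in the heme library, and the summed level of the members in them was 1071 and 804 CPM. Those with several hashtags numbered 1259 and 1996, with 2316 CPM in the control and 1244 CPM in the heme library. Both kinds thus held the members at a higher level in the control library, as the cells with 1 hashtag did over all days (2500.1 and 1279 CPM).

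Single cells with most of the members detected occurred in cultures of both libraries. The cell with the most Isg15 UMIs held 33 of 33 members in the control culture of day 4, 32 in the control culture of day 5, 24 in the heme culture of day 0 and 32 in the heme culture of day 4. In the heme culture of day 7 it held 25 members in 3758 gene UMIs. These cells were picked by an interferon-stimulated gene, so that high levels of the other members in them are a description only.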
